A study of Mus musculus with 12 samples.

Results

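The canonical histone genes of mouse paw cultures were described in polyadenylated RNA: 43 genes whose symbol starts with Hist1h, Hist2h, Hist3h or Hist4h in the GENCODE M21 annotation of GRCm38, and whose mean regularized log value (rlog, a log2 scale) over all 12 libraries was at least 3. The table of 55413 genes held 70 rows with such a symbol, and 16459 genes of any kind reached the same mean. The 43 genes comprised 6 linker histone H1 genes, 6 H2A, 11 H2B, 9 H3 and 11 H4 genes. Just inside the threshold was Hist1h4k with a mean of 3.03, and just outside it was Hist1h4b with a mean of 2.79.

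The cultures came from BALB/c mice injected in the paws with monosodium urate crystals, the crystals of gout, and were compared in 4 groups of 3 libraries. Left paws received crystals on day 0 and day 9 and are called primed, right paws received them on day 9 only and are called non-primed, and RNA was taken on day 18. The non-primed and primed vehicle groups came from mice given intraperitoneal injections without drug. The primed in vivo group came from mice that received I-BET151, an inhibitor of the bromodomain proteins of the BET family. Its daily intraperitoneal dose was 20 mg/kg, and dosing began 1 day ahead of the earlier crystal injection. The primed in vitro group consisted of primed paw cells kept for 24 h with the drug at 1 µM, and the labels do not say which injections those mice received or whether the other cultures were given solvent. All cultures were collagenase digests pooled from 2 to 3 paws and grown for 5 passages, so paw side and priming go together, and no library stands for 1 animal. Nothing says that the numbered samples of a group came from separate animals, so p-values measure the spread between these cultures, which may be partly technical.

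Canonical histones are the proteins around which DNA is wound (H2A, H2B, H3 and H4) and the linker protein that sits between nucleosomes (H1). Their genes lie in clusters, are transcribed mainly in S phase, and give mRNAs that normally end just after a short stem-loop instead of carrying a poly(A) tail. Polyadenylated forms of these mRNAs arise when the RNA is cleaved at a signal further downstream, and they are known from differentiating and non-dividing cells. The libraries were made with a kit for polyadenylated mRNA, so the values describe transcripts captured in that way and not the whole histone mRNA pool.

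The stem-loop letters, searched as a 6-base stem, a 4-base loop and the matching stem after the stop codon, were found in the annotated coding transcripts of 34 of the 43 genes. They are shown because the 3' end bears on whether a histone mRNA is captured in these libraries. Each line runs 5' to 3' and gives up to 30 bases of the GRCm38 transcript, with the 16-base stem-loop in capitals.
Hist1h1c: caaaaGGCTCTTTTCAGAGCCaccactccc
Hist1h2bj: ccaaaGGCTCTTTTCAGAGCCacgcacaat
Hist1h2bk: ccaaaGGCTCTTTTAAGAGCCactaaacca
Hist1h3g: ttaaaGGCTCTTCTTAGAGCCacccatctt
Hist2h3c2: acaaaGGCTCTTTTCAGAGCCaccacagct
Hist1h4h: ccaaaGGCCCTTTTCAGGGCCgcccacatt
Hist1h4i: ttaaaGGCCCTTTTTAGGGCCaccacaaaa
Hist1h4j: ctaaaGGTCCTTTTCAGGACCaccacatct
The form shared by Hist1h1c, Hist1h2bj and Hist2h3c2 occurred in 17 genes, none of them H4. The form of Hist1h4h occurred in 6 genes, all H4, and that of Hist1h2bk in 6 genes of the H1, H2B and H3 classes. Hist1h4i shared its form with Hist2h4, while the forms of Hist1h3g and Hist1h4j were each found in 1 gene.

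In 21 of the 34 genes with a stem-loop, the annotated transcript ran on by more than 100 bases beyond it, by a median of 752 bases. Hist1h1c, Hist1h4i and Hist2h3c2 were among them, with 840, 330 and 377 bases after the stem-loop. In the other 13 genes it ended within 74 bases, as in Hist1h4h, Hist1h2bj and Hist1h3g with 46, 23 and 47 bases. No such letters were found in Hist1h1a, Hist1h2af, Hist1h2bc and Hist2h2be. The annotated transcript of Hist1h2af held 1 base after the stop codon, too few for a stem-loop, and that of Hist1h1a held 48. The annotation held only the coding part of Hist1h1b, Hist1h2bn, Hist1h3i and Hist1h4k, and Hist3h2bb-ps is a pseudogene with no coding transcript. Among the 27 histone rows below the threshold, 12 had a stem-loop and 2 ran on past it. The sequence AATAAA, the usual poly(A) signal, followed the stem-loop in 12 of the 43 genes.

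Many of these genes have near-identical copies, and how reads that match several genes were counted is not given in the labels. The median share of 50-base windows that a gene had in common, letter for letter, with another gene was 40.4% among the 43 genes and 79.7% among the 27 rows below the threshold. In 14 of the 43 genes it was over 50%, with 89.8% in Hist1h4m, 87.6% in Hist1h3i and 86.4% in Hist1h2bn, so values of such genes are uncertain. Hist1h1e overlaps Hist1h2be in part on the same strand, Hist3h2a overlaps Trim17, and all 6 H2A genes overlap an annotated antisense gene, so their reads may not be separable.

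Promoters, from 250 bases before to 50 bases after the RefSeq start (GRCm38.p6), were matched for 37 of the 43 genes. The CCAAT box, on either strand, was in 30 of the 37 (81.1%), against 37.4% of all 32851 promoters. It was in all 27 matched H1, H2A, H2B and H3 promoters and in 3 of 10 H4 promoters. TATAAA was in 62.2% against 13.6% of all promoters, and ATTTGCAT, the octamer known from H2B promoters, in 18.9% against 1.74%. The octamer was in 4 of 6 H2A and 3 of 8 H2B promoters and in none of the other classes. Both strands were searched for each motif, and a match is a description and not a binding site. The 250 bases before the start are shown for an H1, an H2B and an H4 gene named in the comparisons, all on the plus strand, with CCAAT and its reverse complement in capitals.
Hist1h1c, chr13:23738557-23738806: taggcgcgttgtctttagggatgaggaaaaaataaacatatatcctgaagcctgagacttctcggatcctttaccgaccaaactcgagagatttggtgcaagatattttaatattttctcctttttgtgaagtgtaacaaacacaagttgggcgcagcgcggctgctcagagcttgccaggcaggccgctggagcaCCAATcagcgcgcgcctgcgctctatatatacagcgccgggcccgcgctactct
Hist1h2bj, chr13:22042948-22043197: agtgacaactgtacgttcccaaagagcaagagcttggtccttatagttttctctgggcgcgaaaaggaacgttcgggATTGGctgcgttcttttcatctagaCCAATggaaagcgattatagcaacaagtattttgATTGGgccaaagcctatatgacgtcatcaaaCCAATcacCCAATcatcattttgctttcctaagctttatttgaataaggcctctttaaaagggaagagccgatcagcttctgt
Hist1h4h, chr13:23530794-23531043: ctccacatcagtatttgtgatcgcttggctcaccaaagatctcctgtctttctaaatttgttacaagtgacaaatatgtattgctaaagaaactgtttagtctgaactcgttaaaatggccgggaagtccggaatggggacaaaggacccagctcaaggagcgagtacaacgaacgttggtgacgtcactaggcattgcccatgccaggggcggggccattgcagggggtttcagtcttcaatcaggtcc
The Hist1h2bj window held the box 5 times, the Hist1h1c window 1 time, and the Hist1h4h window not at all.

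Of the 43 genes, 37 lie on chromosome 13, in 3 stretches of histone genes separated by more than 100 kb. The stretch at chr13:21715763-21837530 held 8 of them (Hist1h4j, Hist1h4k, Hist1h2bn, Hist1h1b, Hist1h3i, Hist1h2bp, Hist1h4m and Hist1h4n). The stretch at chr13:22035164-22043676 held Hist1h2bk, Hist1h4i and Hist1h2bj, and the one at chr13:23531050-23764406 held 26. The other genes were Hist2h2be, Hist2h3c2 and Hist2h4 on chromosome 3, Hist3h2a and Hist3h2bb-ps on chromosome 11, and Hist4h4 on chromosome 6.

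Libraries stood apart in ways that cut across the labels. The mean over 15 pigment cell markers was 12.76 to 14.21 in the 3 non-primed libraries and in vivo libraries 2 and 3, and 6.27 to 7.29 in the other 7. The mean over 10 fibroblast markers, against which the labelled tissue (synovial fibroblasts) was checked, was 8.38 to 12.12 in those 5 libraries and 15.49 to 16.28 in the other 7, and the mean over 40 S phase genes was 12.35 to 12.73 and 10.37 to 10.96. Tyrp1, a pigment enzyme, was at 3.98 to 6.10 in the 7 libraries, and the collagen gene Col1a1 at 9.00 to 14.26 in the 5. Without counts, such rlog values do not show whether a library held any reads of these genes. Over all genes, the library labelled in vivo 1 had its highest correlation with in vitro library 1 (r = 0.992) and r = 0.891 and 0.897 with its own group. The library labelled non-primed 3 had its highest correlation with in vivo library 2 (r = 0.983) and r = 0.956 and 0.948 with its own group. Hexim1, whose transcript is known to rise under BET inhibition, was at 12.19 and 12.25 in non-primed libraries 1 and 2 and 14.26 in library 3, at 11.98 to 12.39 in primed vehicle, and at 13.85 to 14.23 in all 6 treated libraries. The in vivo and non-primed groups were therefore analysed as labelled and again without in vivo library 1 or non-primed library 3. In bulk RNA, fewer cells of a type and less RNA per cell cannot be told apart.

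Set against length, the histone genes differed widely in level. Mean rlog less log2 of the exonic length in kb was highest for Hist1h1c (12.77) and Hist1h2bc (12.57), followed by Hist1h4i (10.96), Hist1h4h (10.02) and Hist2h3c2 (8.99), and lowest for the testis-type linker gene Hist1h1t (3.19). The mean rlog of the 43 genes by library was 4.20, 4.16 and 5.60 in the non-primed group, 5.86, 5.50 and 6.16 in primed vehicle, 7.46, 5.96 and 6.17 in the in vivo group, and 7.15, 6.86 and 6.90 in the in vitro group. In vivo library 1 held the highest value of 24 of the 43 genes, and non-primed libraries 1 and 2 the lowest value of 31 of them (13 and 18). The median SD of a histone gene within a group was 0.92 in the non-primed and 0.79 in the in vivo group, against 0.35 in primed vehicle and 0.25 in the in vitro group.

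**Figure D1:**
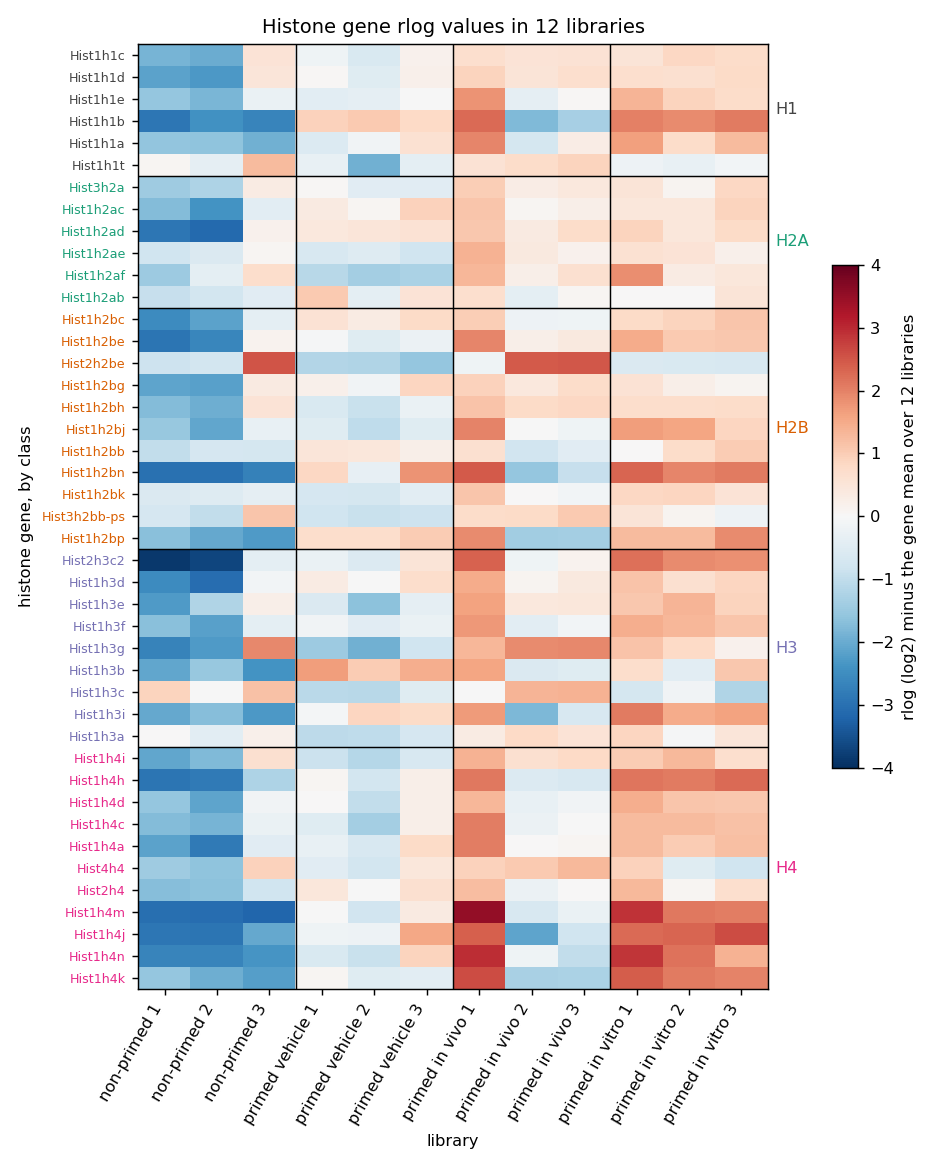
Each row is a histone gene, ordered by class and then by mean, and each column a library; colour gives the rlog value (log2) minus the gene's mean over 12 libraries. The 3 in vitro libraries and in vivo library 1 are mostly red, non-primed libraries 1 and 2 mostly blue, and Hist2h2be is highest in non-primed library 3 and in vivo libraries 2 and 3.

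Exposure of primed cells to I-BET151 in culture was accompanied by higher histone transcripts. Against primed vehicle, 28 of 43 histone genes rose and 0 fell (limma, adjusted p under 0.05), where 13.4% of all genes tested were called higher and 16.9% lower. At an unadjusted p under 0.05 there were 32 histone genes, all higher, where 19.7% of all genes were higher at that p and 7087 of 16459 passed it in either direction. The median difference was 1.23 on the log2 scale over the 43 genes and -0.02 over all genes. In 31 genes every in vitro library was above every vehicle library (22.7% of all genes), and in 0 the reverse held (25.7% of all genes). By class, 4 of 6 H1, 3 of 6 H2A, 6 of 11 H2B, 6 of 9 H3 and 9 of 11 H4 genes rose, with median differences of 0.98, 0.49, 0.98, 1.33 and 1.87.

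The call rests on a spread estimated from the 6 libraries compared. With all 12 libraries in the fit, where the more variable groups enter the estimate, 2 of the 43 genes were called higher and 0 lower, where 1.76% of all genes were called higher and 2.76% lower. Without in vitro library 1 or 2, 16 and 17 were called, all higher, where 6.82% and 5.91% of all genes were called higher. A gene that was high only in treated cells could pass the mean of 3 through them, so the level in vehicle was looked at as well. Of the 37 genes with a vehicle mean of 3 or more 23 rose, and of the 6 below it 5 rose. The 6 were Hist1h1t, Hist1h2af, Hist1h2bk, Hist3h2bb-ps, Hist1h3a and Hist1h4k, and the filter bears on their direction. Of the 27 rows under the threshold, 3 were at 0 in every library, and without any filter 1 of the other 24 was called higher and 0 lower. The same fit called 20 of the 43 genes higher and 0 lower, against 28 with the filter. In that fit 4.28% of all 36277 rows were called higher and 6.73% lower, so the rows under the threshold were called at about the share of all rows.

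Among linker histones, which compact the fibre between nucleosomes, Hist1h1c was the most abundant. It was at 13.24, 12.82 and 13.59 in primed vehicle and at 13.92, 14.24 and 14.14 in the in vitro libraries, without overlap. It rose by 0.88 ± 0.20 (SE; adjusted p = 0.017), 1.84-fold on the rlog scale. Hist1h1e (1.27 ± 0.23), Hist1h1b (1.07 ± 0.22) and Hist1h1d (0.76 ± 0.19) rose too. Hist1h1a differed by 1.24 ± 0.39 (adjusted p = 0.0524) and Hist1h1t by 0.66 ± 0.46 (adjusted p = 0.315), and neither was called.

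The H2A genes, whose product pairs with H2B at the outside of the nucleosome, were divided. Hist1h2af was at 2.84, 2.59 and 2.66 in vehicle and 5.79, 4.27 and 4.41 in vitro, a rise of 2.13 ± 0.43 (adjusted p = 0.0126). It reached the filter through libraries other than vehicle, and 79.7% of its windows were shared with other genes. Hist3h2a, the H2A gene of highest mean rlog, rose by 0.78 ± 0.23 (adjusted p = 0.0408) and Hist1h2ae by 1.10 ± 0.24. Hist1h2ac, Hist1h2ad and Hist1h2ab differed by 0.14 ± 0.26, 0.21 ± 0.22 and -0.21 ± 0.41, and their groups overlapped.

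Among H2B genes, Hist1h2bj was at 5.67, 5.13 and 5.67 in vehicle and 7.81, 7.73 and 7.01 in vitro. It rose by 2.03 ± 0.30 (adjusted p = 0.0048), or 4.08-fold. Hist1h2be (1.47 ± 0.18), Hist1h2bk (1.35 ± 0.24), Hist1h2bh (1.30 ± 0.22), Hist3h2bb-ps (0.98 ± 0.27) and Hist2h2be (0.69 ± 0.16) rose. The most abundant H2B transcript, Hist1h2bc, was at 13.35, 13.12 and 13.56 in vehicle and 13.55, 13.67 and 13.89 in vitro. Its groups overlapped, with a difference of 0.36 ± 0.14 (adjusted p = 0.0943). Hist1h2bg differed by -0.02 ± 0.29 and Hist1h2bb by 0.18 ± 0.31.

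H3, which carries most of the known lysine marks of the nucleosome, was represented at the highest level by Hist2h3c2. It was at 8.76, 8.47 and 9.54 in vehicle and 11.23, 10.90 and 10.85 in vitro, a rise of 2.07 ± 0.28 (adjusted p = 0.00378). Hist1h3g went from 3.97, 3.50 and 4.63 to 6.56, 6.23 and 5.59, a rise of 2.09 ± 0.39 (adjusted p = 0.00944). Hist1h3e (1.97 ± 0.38), Hist1h3f (1.59 ± 0.22), Hist1h3a (1.33 ± 0.31) and Hist1h3i (1.21 ± 0.34) rose. Hist1h3b had the lowest difference of the 43 genes, -0.92 ± 0.43 (adjusted p = 0.148), with 5.85, 5.20 and 5.63 in vehicle and 4.89, 3.75 and 5.27 in vitro.

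H4, the partner of H3 at the centre of the nucleosome, held the 4 largest differences. Hist1h4h was at 9.00, 8.21 and 9.17 in vehicle and 11.06, 11.01 and 11.20 in vitro, and rose by 2.30 ± 0.25 (adjusted p = 0.00253), or 4.91-fold. Hist1h4i was at 9.65, 9.37 and 9.86 in vehicle and 11.53, 11.78 and 11.18 in vitro, and rose by 1.87 ± 0.19 (adjusted p = 0.00234). In both, the lowest treated library lay more than 1 log2 unit above the highest vehicle library. Hist1h4m (2.48 ± 0.39), Hist1h4k (2.43 ± 0.28), Hist1h4n (2.34 ± 0.57), Hist1h4j (2.00 ± 0.49), Hist1h4c (1.77 ± 0.40), Hist1h4d (1.46 ± 0.34) and Hist1h4a (1.23 ± 0.38) rose. Of the largest differences, those of Hist1h4m, Hist1h4k and Hist1h4n are uncertain, with 89.8%, 71.5% and 85.6% of windows shared with other genes. Hist1h4k was at 3.12, 2.55 and 2.62 in vehicle and reached the filter through other libraries. Hist2h4 and Hist4h4, outside chromosome 13, differed by 0.32 ± 0.37 and 0.12 ± 0.53 and were not called.

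**Figure D2:**
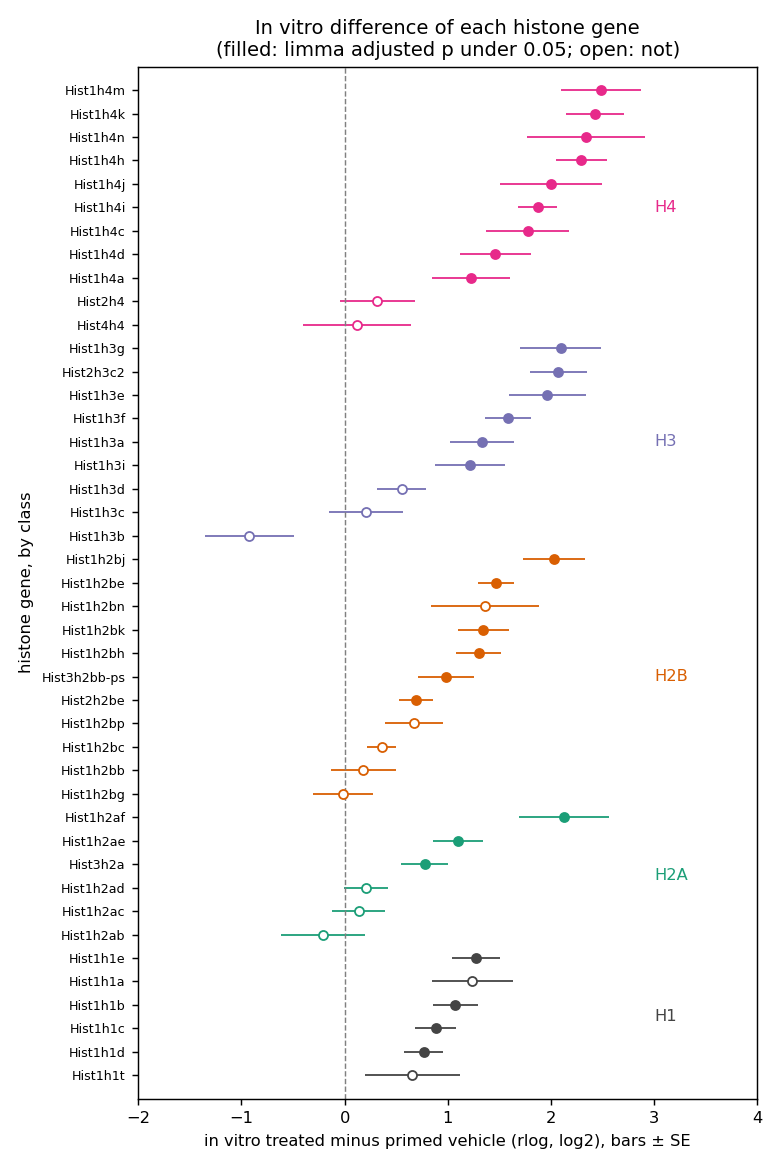
Points give the difference between in vitro treated and primed vehicle means (3 libraries each, rlog on a log2 scale) for each histone gene, by class, and bars give ± 1 SE from limma; filled points passed an adjusted p of 0.05. Differences run from -0.92 (Hist1h3b) to 2.48 (Hist1h4m), and 9 of 11 H4 genes are filled.

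The rise was seen with both kinds of annotated 3' end and at both levels of shared sequence. Of 21 genes whose transcript runs on past the stem-loop, 15 rose (median difference 1.23), and of 13 that end near it, 7 rose (median 1.33). Of 4 genes with only the coding part annotated 3 rose, of 4 without stem-loop letters 2 rose, and the pseudogene rose. Over all genes, 13.4% were called higher and 16.9% lower. Of the 14 genes with more than 50% of windows shared with another gene, 10 rose (median 2.00), and of the 29 others 18 rose (median 0.98). These shares were not tested against each other, and the annotation does not show which 3' ends were present in these cells.

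The in vitro comparison also covered the other genes of histone supply, by lists, beside 13.4% of all genes called higher and 16.9% lower. Of 11 replication-independent variants, whose mRNAs are normally polyadenylated, 7 rose and 1 fell (median difference 0.85): H2afx rose by 1.34, H1f0 by 1.11 and H2afv by 1.07, and H2afy2 fell by 0.92. H3f3b and H2afz, which encode variant H3.3 and H2A.Z, rose by 1.06 and 0.53. Of 31 tested genes of histone mRNA 3' end processing and decay, 2 rose and 4 fell: the stem-loop binding protein gene Slbp rose by 0.39 and Casp8ap2 by 0.48, while Lsm11, of the U7 particle that cuts histone mRNA, fell by 0.56 and Pnpt1 by 0.53. Npat, the activator of histone gene transcription in S phase, differed by 0.19 (adjusted p = 0.26). Of 25 chaperone genes, 2 rose and 1 fell.

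Few markers of DNA replication were called in this comparison, where 13.4% of all genes were called higher and 16.9% lower. Of 40 S phase genes, 2 rose (Gins1 by 0.76 and Mcm7 by 0.46) and 1 fell (Cdt1, by 0.94), with a median of 0.13. Mki67, a marker of dividing cells, was at 12.28, 12.48 and 12.20 in vehicle and 13.04, 12.88 and 12.31 in vitro, a difference of 0.42 (adjusted p = 0.138). Of 15 pigment cell markers 0 were called higher and 1 lower (Mitf, by 1.65), and of 10 fibroblast markers 0 and 1. In 7 of the 15 pigment cell markers every in vitro library was below every vehicle library (25.7% of all genes), and in 0 the reverse held. Their median difference over the 15 was -0.63. Brd2, which encodes a BET protein, rose by 2.01 and Hexim1 by 1.78.

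Treatment of the animals gave fewer calls, and the libraries of that group disagreed. Against primed vehicle, 9 of 43 genes rose and 0 fell, where 10.2% of all genes were called higher and 13.8% lower. At an unadjusted p under 0.05 there were 15 histone genes, all higher, where 19.7% of all genes were higher at that p and 7254 of 16459 passed it in either direction. Of the 37 genes with a vehicle mean of 3 or more, 6 rose, and of the 6 below it 3 rose. The median difference was 0.78 against -0.05 over all genes, and 18 genes did not overlap, all higher (22.7% of all genes). The replicate libraries shared this vehicle group with the in vitro comparison, so the lists are not independent. Called genes were Hist1h3g (3.12 ± 0.40, adjusted p = 0.0091), Hist2h2be (2.89 ± 0.74), Hist1h2af (1.98 ± 0.36), Hist1h4i (1.82 ± 0.25), Hist1h3c (1.80 ± 0.48), Hist3h2bb-ps (1.69 ± 0.24), Hist1h2bh (1.50 ± 0.29), Hist1h3a (1.46 ± 0.26) and Hist1h1c (0.79 ± 0.21). The count was 0 without in vivo library 3, 1 without in vivo library 2 or vehicle library 2, and 3 and 2 without vehicle library 1 or 3. It was 24 (16 higher, 8 lower) without in vivo library 1, where 30.6% of all genes were called higher and 36.8% lower. The shares of all genes in the other fits are not given here, so those counts do not show a change particular to the histone genes.

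In vivo library 1 alone was above the vehicle mean in 43 of 43 genes. The median difference was 1.58 (all genes -0.01), and 12 genes were called higher and 0 lower, where 3.48% of all genes were called higher and 7.52% lower; this assumes that the lone library varies like the vehicle group. Hist1h4h differed by 2.26, Hist2h3c2 by 2.45, Hist1h4i by 2.27, Hist1h2bj by 2.65 and Hist1h4m by 3.65. In vivo libraries 2 and 3, by contrast, were above vehicle in 26 genes and below it in 17, with a median of 0.09. There, 16 genes rose and 8 fell, where 30.6% of all genes were called higher and 36.8% lower. The pigment cell marker mean was 6.27 in in vivo library 1 and close to 12.8 in libraries 2 and 3, and the part of that gap in the histone values was not tested.

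Some genes differed between in vivo library 1 and libraries 2 and 3. Hist2h2be, an H2B gene on chromosome 3 with no stem-loop letters in its annotated transcript, was at 12.06 in non-primed library 3, at 11.99 and 12.02 in in vivo libraries 2 and 3, and at or under 9.38 in the other 9 libraries. Hist1h3c was lowest in primed vehicle and in vitro libraries (2.72 to 3.79) and at 3.92 to 5.33 in the 5 pigment-rich ones, with 3.91 in in vivo library 1. Hist1h1b ran the other way, at 1.92 and 2.37 in in vivo libraries 2 and 3 against 5.96 in library 1 and 4.50 to 4.74 in vehicle. Hist1h3g was close in all 3 in vivo libraries, at 6.77, 7.34 and 7.34, but at 7.35 in non-primed library 3 against 2.75 and 3.15 in libraries 1 and 2.

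Primed and non-primed cultures, both without drug, were compared in the same way. In primed vehicle 15 genes were higher and 2 lower, where 27.7% of all genes were called higher and 21.2% lower. The median difference was 1.18 against 0.05 over all genes. Of the 15 called higher, 10 had a non-primed mean under 3 and so reached the filter only through other groups, which largely fixes their direction. Of the 32 genes with a non-primed mean of 3 or more, 5 were higher and 2 lower. The groups did not overlap in 18 genes that were higher (33.7% of all genes) and 3 that were lower (28%). Of those 18, 10 had a non-primed mean under 3. Among the 32 genes with a non-primed mean of 3 or more, 8 were higher without overlap, and the median difference was 0.92. Among the genes called higher, differences were largest in Hist1h2bn (3.66 ± 0.53), Hist1h1b (3.58 ± 0.24) and Hist1h3b (3.37 ± 0.34, limma adjusted p = 0.000661). Next were Hist1h4j (3.01 ± 0.54), Hist1h4m (2.95 ± 0.34), Hist1h2bp (2.79 ± 0.26), Hist1h3i (2.52 ± 0.33) and Hist1h4n (2.35 ± 0.48). Each of these named genes had a non-primed mean under 3, so the filter largely fixed its direction. Hist2h3c2 and Hist1h2ad differed by 2.55 and 2.43 and were not called. Hist1h3c was lower by 1.58 and Hist1h3a by 0.84. In the fit without any filter, neither was called: 15 of the 43 genes were higher and 0 lower. In that fit 5741 of all 36277 rows were called higher and 3446 lower. Without the library labelled non-primed 3, 31 genes were higher and 1 lower, where 31% of all genes were called higher and 24.6% lower. The median was 1.58. In non-primed libraries 1 and 2, Hist1h2ad was at 2.84 and 2.64 and Hist1h3b at 2.10 and 2.66. The 31 were not split by that level, so the direction of part of them was largely fixed by the filter.

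In the same comparison the S phase list went the opposite way, with 37 of 40 genes lower in primed cells and 0 higher. Slbp fell by 1.26, Npat by 0.95 and Mki67 by 3.07 from non-primed to primed libraries. Of 15 pigment cell markers 14 were lower and 1 higher, and 10 of 10 fibroblast markers were higher. Cell makeup, priming and paw side cannot be told apart here, and the part of each in the histone values was not tested.

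Levels also differed between stretches of chromosome 13. All 8 genes of chr13:21715763-21837530 had a non-primed mean under 3 (1.39 at most), and the other 11 of the 19 histone rows there did not reach the filter. They were included only through libraries of the other groups, so their calls in this comparison (8 of 8 higher in primed vehicle, by 1.65 to 3.66) were largely fixed by the filter and support nothing. Of the 26 genes of chr13:23531050-23764406, of which 24 had a non-primed mean of 3 or more, 6 were higher and 2 lower, and of the 3 of chr13:22035164-22043676, 0 were called. The difference between stretches was not tested, and the levels are given as a description. The mean of the 8 genes was 1.08, 1.07 and 1.07 in the non-primed libraries, so library 3 was not above the others there. It was 3.75, 3.52 and 4.38 in primed vehicle, 6.01, 2.19 and 2.59 in vivo, and 5.80, 5.44 and 5.50 in vitro. The mean of the 26 genes was 4.76, 4.71 and 6.40 in the non-primed libraries and 7.70, 6.61 and 6.79 in the in vivo libraries. Within the 8, Hist1h1b, with no shared windows, was at 0.79, 1.26 and 1.07 in the non-primed libraries, and Hist1h4m, with 89.8% shared, at 1.45, 1.43 and 1.30. These values lie at the low end of the rlog scale, where differences are shrunk.

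**Figure D3:**
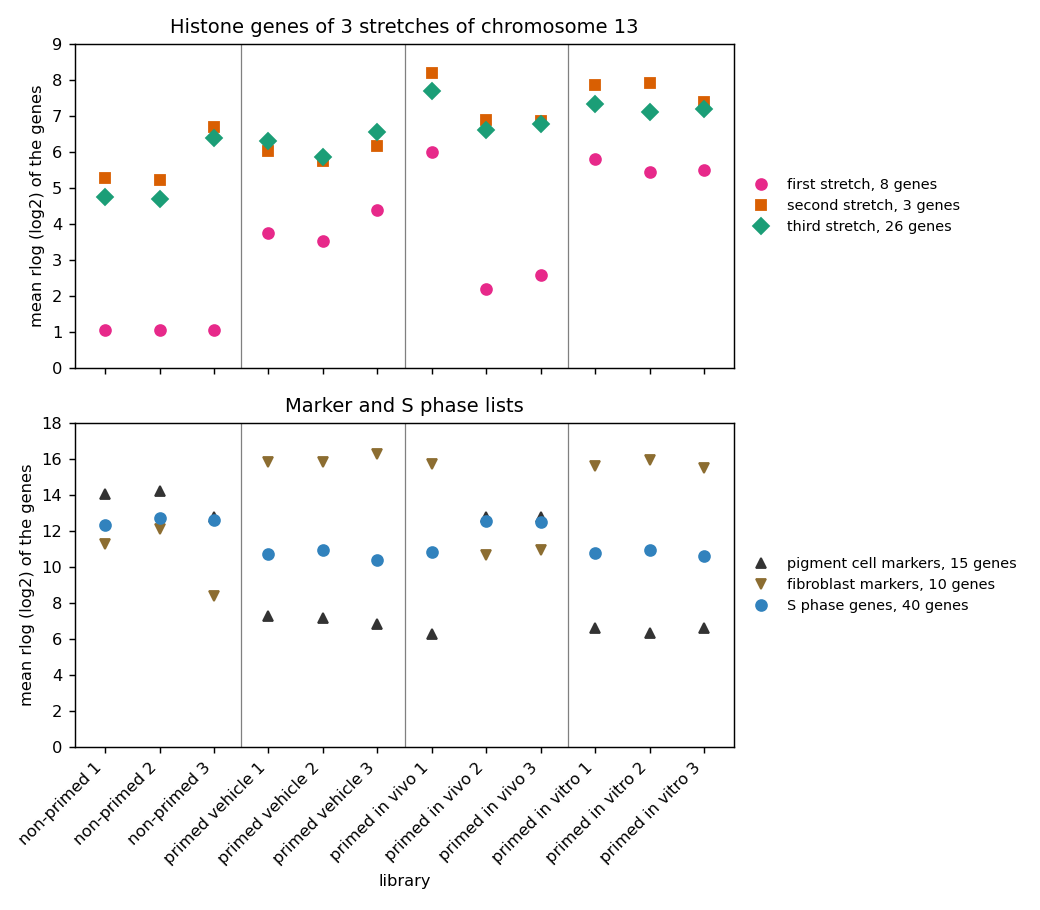
The upper panel gives the mean rlog (log2) of the histone genes in 3 stretches of chromosome 13 (8, 3 and 26 genes, in order along the chromosome) for each of 12 libraries, and the lower panel the mean of pigment cell, fibroblast and S phase lists. The 8-gene stretch lies near 1.1 in all 3 non-primed libraries and at 5.44 or above in in vivo library 1 and the in vitro libraries. Pigment markers are high in the 5 libraries where it is lowest. The 8 genes had a non-primed mean under 3, so the filter largely fixed their low place in the non-primed libraries.

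In vivo treated primed cultures were above non-primed vehicle cultures in the mean of 43 of 43 genes, and none passed the test. For the 11 genes with a non-primed mean under 3 that direction was largely fixed by the filter; the other 32 had a median difference of 1.85. Of the 24 rows under the threshold that were not at 0 throughout, 20 were above and 4 below, with a median of 0.28 without any filter. Over the 43 genes the median difference was 1.89 against 0.03 over all genes. In 28 genes the groups did not overlap, all higher (8.71% of all genes, with 8.62% lower without overlap). Among the 32 genes with a non-primed mean of 3 or more, 19 were higher without overlap. By limma, 0 histone genes and 0 of all 16459 genes passed an adjusted p of 0.05, while 21 and 842 had an unadjusted p under 0.05. Hist1h4m differed by 3.95 ± 1.13, Hist2h3c2 by 3.42 ± 1.14 and Hist1h3c by 0.22 ± 0.59 (each adjusted p 0.565 or more). Without the library labelled non-primed 3, 7 genes were called higher and 0 lower, where 0.358% of all genes were called higher and 0.608% lower. The filter bears on that fit too, and the 7 were not split by their level in the remaining non-primed libraries.

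Among the pigment-rich libraries alone, treated and untreated cultures could be set side by side. In vivo libraries 2 and 3 were above non-primed libraries 1 to 3 in 43 of 43 genes, with a median of 1.47 (all genes 0.01), and 0 histone genes and 0 of all genes were called by limma, with 9 and 269 at an unadjusted p under 0.05. Here too the filter largely fixed the direction of the 11 genes with a non-primed mean under 3. The library labelled non-primed 3 was then left out as well, a choice made with the values known. In that fit 30 of 43 genes were higher and 0 lower, where 16.8% of all genes were called higher and 20.6% lower. The median was 1.69 (all genes -0.02). The filter reaches further genes there. In non-primed libraries 1 and 2, Hist1h2ad was at 2.84 and 2.64 and Hist1h3g at 2.75 and 3.15. The 30 were not split by that level, so the direction of part of them was largely fixed by the filter. Hist1h3g differed by 4.39, Hist2h3c2 by 3.76, Hist2h2be by 3.23, Hist1h2be by 3.09, Hist1h4i by 2.64, Hist1h1c by 2.48 and Hist1h4h by 2.28. Treatment and priming go together in this contrast and cannot be told apart.

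**Figure D4:**
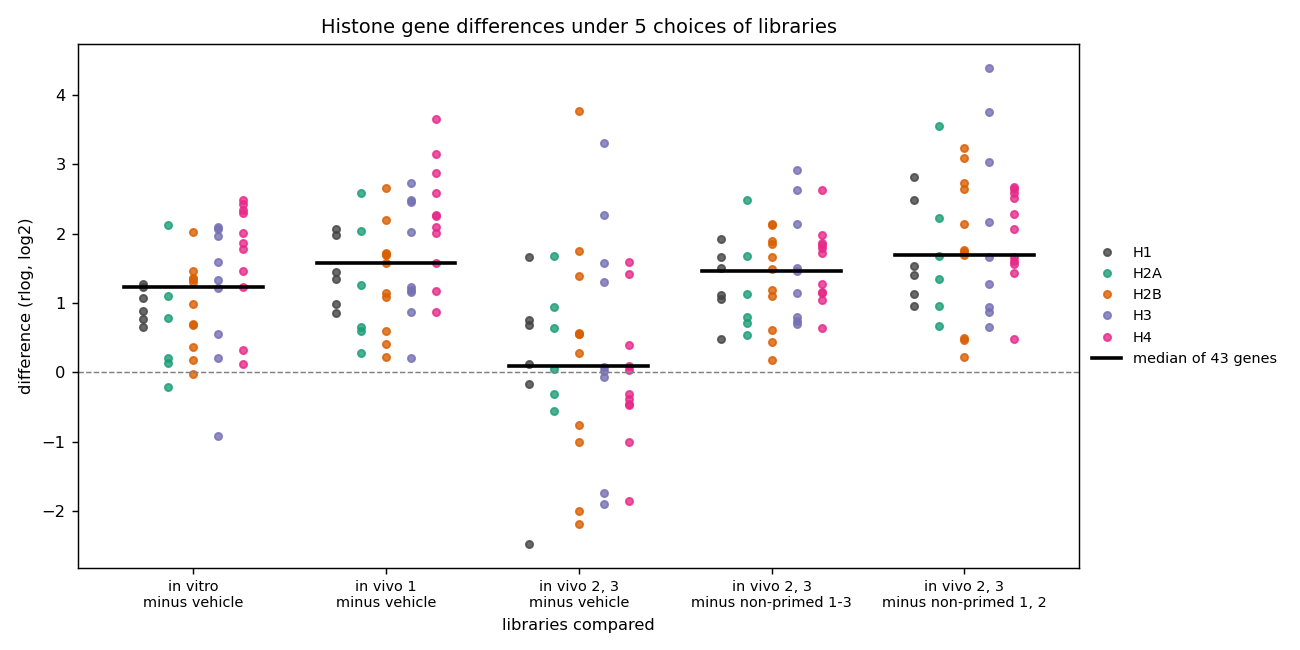
Each point is a histone gene, coloured by class, and its height is the difference in rlog (log2) for the libraries named under it; black lines are medians of 43 genes. Medians are 1.23, 1.58, 0.09, 1.47 and 1.69 from left to right, and in vivo libraries 2 and 3 minus vehicle is the column with many genes below 0.

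The routes of treatment were also compared with each other. Between in vitro and in vivo groups, 0 histone genes and 0 of all 16459 genes were called by limma, with 4 and 3153 at an unadjusted p under 0.05. The groups did not overlap in 7 histone genes, all lower in vitro (10.8% of all genes): Hist2h2be (-2.20 ± 0.74), Hist1h3c (-1.60 ± 0.52), Hist4h4 (-1.21 ± 0.51), Hist1h3g (-1.02 ± 0.36), Hist1h1t (-0.94 ± 0.24), Hist3h2bb-ps (-0.71 ± 0.30) and Hist1h2bh (-0.20 ± 0.21). Without in vivo library 1, 23 genes were higher and 4 lower in vitro, where 35% of all genes were called higher and 29.5% lower. That fit sets 3 libraries with low pigment cell markers against 2 with high ones, and the part of this in the histone values was not tested. Against in vivo library 1 alone, the in vitro mean was below it in 39 genes and above it in 4, with a median of -0.48 (all genes -0.01). Limma called 0 of them and 0 of all genes, with 5 and 598 at an unadjusted p under 0.05. Hist1h4h differed by 0.04 there, Hist1h1c by 0.02 and Hist1h4m by -1.17.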

How the data were processed

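Polyadenylated RNA of 12 paw cultures was sequenced with a stranded mRNA kit, per the labels' protocols. Per the submitters' processing notes, the authors worked on GRCm38 with DESeq2 1.24.0, featureCounts (Subread 1.6.1), STAR 2.6.1c and cutadapt 1.18. Settings for strand, multiply matching reads and the transformation were not given in the sources used here. What was deposited is 1 table; it holds the authors' log2 values (rlog), which shrink differences of weak genes and keep no counts, so library depth is unknown. All 55413 identifiers matched GENCODE M21. Promoters are from RefSeq (GRCm38.p6).

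Each comparison was fitted with limma 3.58.1 in R 4.3.3 on the 6 libraries of its groups (lmFit, eBayes with a variance trend) over 16459 genes of mean rlog 3 or more. P-values are two-sided and Benjamini-Hochberg adjusted over all genes, and 0.05 was the threshold. Separate fits were chosen because the groups differ in spread; a fit of all 12 libraries is an alternative. An exact permutation test of 3 against 3 cannot pass 0.05 and was not used. Scripts were tested on simulated data. Replicate numbers did not pair the libraries. Named genes were, per comparison, up to 8 called in each direction, the highest gene of each class, non-overlapping genes, and fixed control genes; others were named after their values were seen. The histone genes, gene lists and tests were chosen with earlier results of these data known. Alternatives changed the filter, scaling, moderation, weights, block and libraries.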

Additional observations from a re-analysis of the deposited data

How the results depend on the processing

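For the count of histone genes called, in vitro against primed vehicle gave 28. It was 20 without a filter, 17 (of 24 tested) at a minimum mean of 5 and 2 with all 12 libraries in the fit. With 1 library left out it was 16 to 27. In vivo against primed vehicle gave 5 without a filter, 5 at a minimum mean of 5, 15 after median-centring, 18 after quantile normalization and 24 with array weights, against 9, and 0 to 24 with 1 library left out. Primed against non-primed vehicle gave 4 (of 24) at a minimum mean of 5 and 29 with array weights, against 17, and 13 to 32. In vitro against in vivo gave 30 with array weights against 0, and 0 to 27. The 27 were called without in vivo library 1, where 35% of all genes were called higher and 29.5% lower. In vivo against non-primed gave 31 with array weights and 30 without in vivo library 1 and non-primed library 3 against 0, and 0 to 7. Why array weights change the counts was not tested. Most counts in this paragraph stand without the share of all genes called in the same fit. They therefore do not show whether the histone genes moved apart from all genes. With the replicate number as a block, the counts were 22 in vitro, 0 in vivo, 19 for priming and 0 for the other comparisons; same-numbered libraries did not deviate together (r from -0.43 to 0.37).

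Median-centring turned the split over all genes in vitro from 2207 higher and 2776 lower to 3116 and 2281. Quantile normalization put the median of all genes at 0.19 in vivo against vehicle, -0.24 for priming and -0.12 between the routes of treatment; median-centring put it at 0.13 for the in vivo group against vehicle. Signs reversed only for differences that were not called. For priming, Hist1h4i was -0.048 after quantile normalization and -0.31 to 1.05 with 1 library left out (-0.31 and -0.16 without non-primed library 1 or 2). For in vitro against in vivo, Hist1h1c was -0.0050 after median-centring and -0.11 after quantile normalization; Hist1h4i was -0.042 after median-centring and -0.10 to 0.27 with 1 library left out (-0.10, -0.024 and -0.093 without in vivo library 2 or 3 or in vitro library 2). Hist3h2a was -0.24 to 0.13 (0.13 and 0.11 without in vivo library 1 or in vitro library 2). With in vivo library 1 alone, Hist1h2bc was 0.41 against vehicle, and in vitro minus that library gave -0.047 for Hist1h2bc, -0.38 for Hist2h3c2 and -0.40 for Hist1h4i. The unknown depth and the shrinkage of rlog limit what can be said of the weakest histone genes.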
